A study of Mus musculus with 9 samples.

Results

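Mouse livers that received dmPGE2 before acetaminophen (APAP) were compared with saline livers over all mature microRNAs (miRNAs), which gives what still set them apart from untreated liver 6 h after APAP. The members are the 6 small-RNA libraries of these groups, 3 of each, among 9 in the study, chosen by their labels and column names. Control mice received saline. The dmPGE2+APAP mice received 300 µg/kg dmPGE2 into the peritoneum and, 1 h later, 500 mg/kg APAP by the same route. Mice given that APAP dose without dmPGE2 form the remaining 3 libraries, whose values stand beside the others where they help. All mice were wild-type C57 BL6 at 8 weeks of age, and whole liver was taken 6 h after APAP. A vehicle for dmPGE2 and mice given dmPGE2 without APAP were not analysed here, so dmPGE2 and APAP cannot be told apart in this comparison. Nothing in the labels says that the libraries come from separate animals, so a p-value reflects no more than how these libraries vary, and that variation may be technical.

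A miRNA is cut as a short duplex from a hairpin transcript, and its 5p or 3p arm is loaded into an Argonaute protein and pairs with messenger RNAs mainly through its seed, bases 2 to 8. Messenger RNAs paired in this way are repressed, so miRNAs with the same seed can share targets. Hepatocytes are rich in miR-122, miR-192 and miR-148a, while miR-451a marks red cells, miR-223 myeloid cells and miR-126 endothelium. APAP is turned into a reactive product in hepatocytes and injures them at high dose, and dmPGE2 is a stable methylated form of prostaglandin E2, a lipid mediator that signals through EP receptors.

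The mature sequences on which the comparison turns are printed 5′ to 3′ from RefSeq (GRCm38.p6), with the seed in capitals. The table held 110 of the 131 miRNAs named by rule, and miR-466i-5p, miR-30d-5p, miR-1a-3p, miR-122-5p, miR-143-3p, miR-486a-5p and miR-1948-5p, given by name, were not matched. The first is the miRNA past the threshold. The next 3 show the seed of miR-503-5p beside that of its relatives miR-16-5p and miR-322-5p, and the others show the leading higher miRNAs, the miR-148 group, the miR-30 group with its common seed and the arm with the lowest p among arm ratios.
miR-6481: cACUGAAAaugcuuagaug
miR-503-5p: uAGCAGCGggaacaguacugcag
miR-16-5p: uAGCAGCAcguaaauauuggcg
miR-322-5p: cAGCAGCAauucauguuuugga
miR-652-3p: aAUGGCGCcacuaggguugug
miR-27a-3p: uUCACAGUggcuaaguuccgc
miR-27b-3p: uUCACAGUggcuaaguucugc
miR-21a-3p: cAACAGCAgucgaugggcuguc
miR-148a-5p: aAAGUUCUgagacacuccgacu
miR-148a-3p: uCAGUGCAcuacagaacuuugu
miR-152-3p: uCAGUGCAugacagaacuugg
miR-365-3p: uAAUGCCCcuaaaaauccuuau
miR-30a-5p: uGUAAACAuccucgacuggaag
miR-30e-5p: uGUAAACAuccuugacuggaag
miR-30c-5p: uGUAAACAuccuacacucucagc
miR-99a-3p: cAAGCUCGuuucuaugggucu
The capitals of miR-30a-5p, miR-30e-5p and miR-30c-5p spell 1 seed, as do those of miR-27a-3p and miR-27b-3p and those of miR-148a-3p and miR-152-3p. The seed of miR-503-5p is not that of miR-16-5p and miR-322-5p, and miR-148a-5p shares no seed with its own partner arm.

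Total reads were 7590735, 9739009 and 10483460 in Control libraries 1, 2 and 3 and 6994952, 1038799 and 4733882 in dmPGE2+APAP libraries 1, 2 and 3. The means were 9271070 ± 1502060 and 4255880 ± 3006710 (SD, n = 3), for which the exact permutation p, two-sided, was 0.1, the smallest that 3 against 3 allow. Library 2 of dmPGE2+APAP was the shallowest, at a depth 10.1 times below the deepest, and stood apart: its Pearson r with the other 8 libraries was 0.948 to 0.970 on log2 values across miRNAs, against 0.971 to 0.9898 for all other pairs. Values without it are given for the sets as a whole and for those of the 15 higher and 15 lower miRNAs described later whose value moved by over 1.5 times. Summed hepatocyte markers ranged from 375308 to 524762 CPM (reads scaled to a common library size by TMM) in Control and from 353002 to 392593 in dmPGE2+APAP. The neuronal marker miR-124-3p had 0 reads in both groups.

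After dmPGE2 and APAP, 1 miRNA was higher than in saline livers and 0 were lower. Of 946 rows, 360 passed a filter on low counts, and 347 remained when rows holding nearly the same reads were counted once. With edgeR's quasi-likelihood test and a Benjamini-Hochberg adjusted p under 0.05, the call covered 0.288% of these as higher and 0.0% as lower. At an unadjusted p under 0.05 there were 18 higher (5.19%) and 18 lower (5.19%), or 10.4% in all. DESeq2 called 2 higher and 0 lower, limma-voom 1 and 0. In 21 miRNAs (6.05%) all 3 dmPGE2+APAP libraries lay above all Control libraries, and in 31 (8.93%) they lay below. The same edgeR fit called 3 miRNAs higher (0.865%) and 0 lower between APAP and Control. It called 0 higher and 1 lower (0.288%) between dmPGE2+APAP and APAP. These comparisons share libraries, so their counts are given side by side only.

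**Figure D1:**
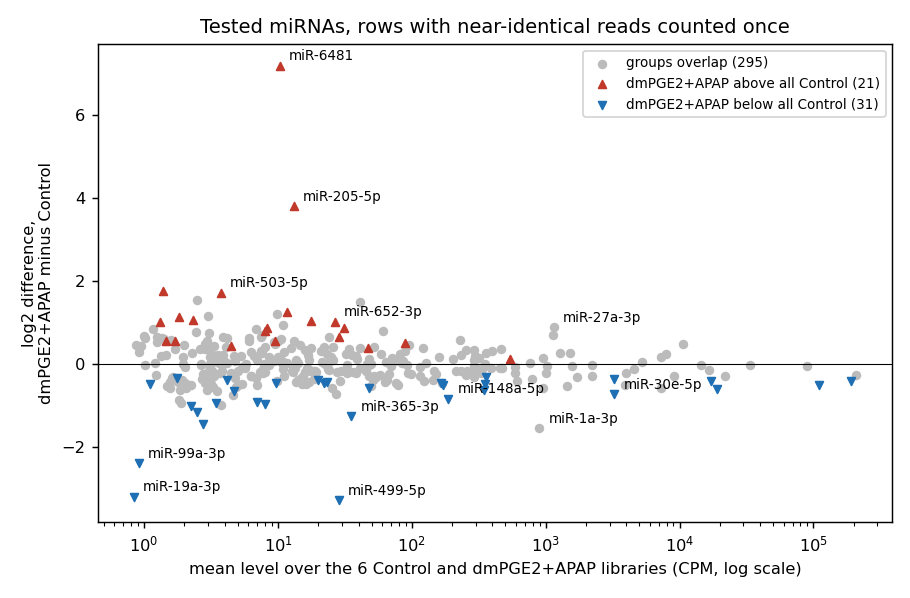
Log2 difference between dmPGE2+APAP and Control for each of the 347 tested miRNAs (y axis) against its mean level over the 6 libraries (x axis, CPM on a log scale). Red triangles mark 21 miRNAs with every dmPGE2+APAP library above every Control library, blue triangles 31 with every one below, and grey points 295 whose groups overlap; miR-6481 at 7.20 stands far above the others.

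How large a difference could have been seen depended on the level. The median standard error (SE) of the log2 difference was 0.44 in the 145 miRNAs under 10 CPM, of which 120 held fewer than 10 reads in dmPGE2+APAP library 2. It was 0.28 from 10 to 100 CPM (120 miRNAs), 0.22 from 100 to 1000 CPM (50) and 0.20 above that (32). The 95% interval of the difference lay wholly within a log2 value of 1 either way in 179 of 347 miRNAs, so a larger change was outside the interval there. Among those at 1000 CPM or more this held for 25 of 32, and among those under 10 CPM for 28 of 145. Intervals that covered 0 numbered 311.

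miR-6481 rose in dmPGE2+APAP livers. Its reads were 0, 0 and 3 in the Control libraries, 49, 25 and 19 under APAP alone and 33, 29 and 159 in dmPGE2+APAP. Scaled to depth, the levels were 0, 0 and 0.276 CPM in Control, 7.05, 3.42 and 4.54 under APAP alone and 4.67, 24.7 and 32.5 in dmPGE2+APAP. Control was at or near 0 in every library, the groups did not overlap, and within dmPGE2+APAP library 1 lay far below the other two. Mean levels were 0.0921 ± 0.160 and 20.6 ± 14.4 CPM (SD, n = 3). After scaling for depth, 221 reads against 3 give a ratio of 140.4 (exact 95% interval 47.4 to 686, for counting error only). The fitted log2 difference was 7.20 (SE 0.94, 95% interval 5.15 to 9.24), with edgeR's Benjamini-Hochberg adjusted p at 0.00203. Against APAP alone it was 1.99 (SE 0.62), which missed edgeR's threshold with a Benjamini-Hochberg adjusted p of 0.273.

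The hairpin of miR-6481 lies at chr3:99199344-99199453 on the minus strand of GRCm38.p6 and is 110 bases long. That places it within the span of Wars2 (chr3:99140107-99221230), which encodes the mitochondrial tryptophanyl-tRNA synthetase; whether it falls in an exon or an intron was not analysed here. Its mature form, printed above, has 19 bases. The whole sequence occurred in 0 of 1004 other mouse hairpins in RefSeq, and the longest run it shared with any of them was 10 bases, with 1 hairpin. No other mature miRNA in the table (0) carried its seed. The miRNA passed the count filter through the APAP and dmPGE2+APAP libraries and not through Control. It passed the threshold in 19 of 21 alternatives. The exceptions were limma-voom with robust variances (log2 6.82, Benjamini-Hochberg adjusted p 0.112) and deposited TPM values with a pseudocount of 10 (log2 1.52, limma adjusted p 0.269).

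Next by p-value among higher miRNAs was miR-503-5p, of a cluster tied to cell-cycle exit (chrX:53053984-53054054 in GRCm38.p6, within the span of the long noncoding RNA C430049B03Rik). It held 1.76, 1.90 and 1.38 CPM in Control, 5.90, 5.34 and 8.37 under APAP alone and 4.24, 6.82 and 6.34 in dmPGE2+APAP. Every dmPGE2+APAP library lay above every Control library, though library 2 rested on 8 reads. The log2 difference was 1.73 (SE 0.38, 95% interval 0.93 to 2.53), and edgeR's Benjamini-Hochberg adjusted p of 0.0595 missed the threshold. It passed in 6 of 21 alternatives, with an adjusted p of 0.00962 by DESeq2. Within 10 kb, miR-322-5p had 17.3 ± 2.72 CPM in Control against 13.7 ± 3.94 in dmPGE2+APAP, miR-322-3p 82.2 ± 22.9 and 85.3 ± 24.6, and the partner arm miR-503-3p 2.63 ± 0.975 and 2.70 ± 0.519. Groups overlapped for each of these, and for miR-351-5p, miR-450a-5p and miR-542-3p as well.

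**Figure D2:**
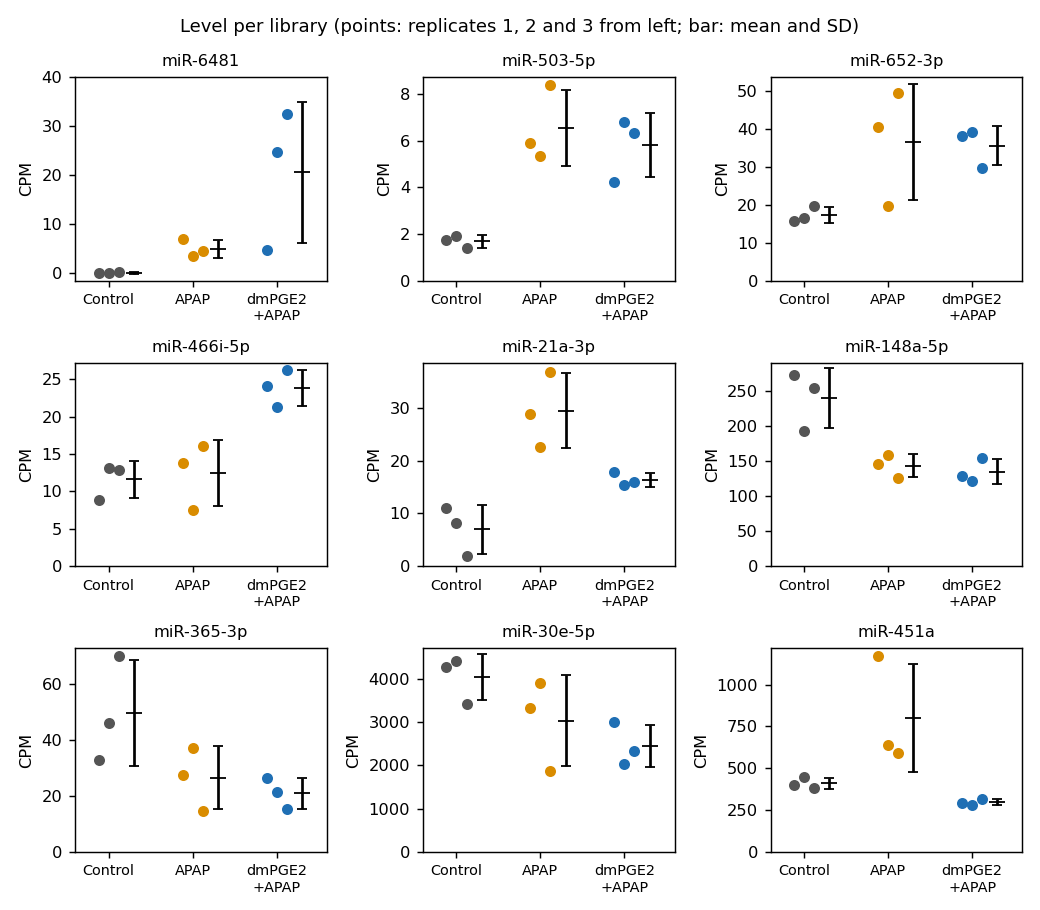
Level in CPM (y axis) of 9 miRNAs in each library of Control, APAP and dmPGE2+APAP (x axis); points are replicates 1, 2 and 3 from the left, and the bar is the mean with its SD (n = 3). miR-6481 runs from 0 to 0.276 in Control and from 4.67 to 32.5 in dmPGE2+APAP, miR-148a-5p shows the opposite order, and miR-451a in dmPGE2+APAP lies below both other groups.

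At a mean of 10 CPM or more over the 6 libraries, none of the other 14 higher miRNAs with the lowest p passed the threshold, with edgeR's Benjamini-Hochberg adjusted p from 0.206 to 0.5004. miR-652-3p, made from a hairpin within Tmem164, had 15.7, 16.6 and 19.7 CPM in Control against 38.2, 39.2 and 29.6 in dmPGE2+APAP, beside 40.6, 19.7 and 49.5 in APAP. Its groups did not overlap, and the log2 difference was 1.03 (95% interval 0.38 to 1.68). miR-466i-5p was listed with the rodent repeat cluster by its name alone, and its hairpin lies on chromosome 13. It had 8.80, 13.2 and 12.8 CPM in Control, 13.8, 7.53 and 16.0 under APAP alone and 24.0, 21.3 and 26.2 in dmPGE2+APAP, a log2 difference of 1.05 (0.40 to 1.70). Here the APAP libraries spanned the Control range while the dmPGE2+APAP libraries lay above all of them. The adjusted p of each was 0.206.

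miR-21a-3p is the passenger arm of the miR-21 hairpin, which lies within Vmp1 and is induced in injured and proliferating liver. It held 11.003, 8.15 and 1.84 CPM in Control, 28.9, 22.6 and 36.8 under APAP alone and 17.8, 15.3 and 15.9 in dmPGE2+APAP. The dmPGE2+APAP libraries lay close together, above every Control library and below every APAP library. Against Control the log2 difference was 1.26 (95% interval 0.31 to 2.22), with edgeR's Benjamini-Hochberg adjusted p at 0.277. Without Control library 3, the lowest, it was 0.82.

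The miR-23, miR-27 and miR-24 clusters, known in endothelium and lipid metabolism, contributed several names. miR-27a-3p had 972, 937 and 511 CPM in Control against 965, 2106 and 1444 in dmPGE2+APAP (log2 0.90, 0.26 to 1.53), so that dmPGE2+APAP library 1 fell within the Control range. Its paralog miR-27b-3p, with the same seed, had 8976, 9842 and 7514 in Control and 8660.3, 15743 and 12371 in dmPGE2+APAP (log2 0.48). In the row of miR-24-2-5p, from the hairpin beside miR-27a, the values were 76.4, 73.8 and 67.3 in Control and 87.8, 124 and 102 in dmPGE2+APAP without overlap (log2 0.52, 0.07 to 0.96). That row holds nearly the same reads as miR-3074-2-3p, annotated from an overlapping hairpin. Of 11 cluster rows 9 were tested, and 9 of 9 had values above 0, beside 162 of 347 over all miRNAs. Their median log2 difference was 0.35 beside -0.03, and ran from 0.27 to 0.57 over the alternatives. It was 0.55 without Control library 1 and 0.57 with library totals in place of TMM scaling, which moved the median of all miRNAs to 0.20. No member was called by edgeR (0 of 9), and 3 were higher at an unadjusted p under 0.05, beside 18 of 347 (5.19%).

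The other higher miRNAs in this group had log2 differences from 0.40 (miR-339-5p) to 0.95 (miR-378b), leaving aside miR-205-5p. miR-130a-3p, linked to angiogenesis, had 23.5, 20.2 and 22.7 CPM in Control against 35.5, 40.9 and 29.6 in dmPGE2+APAP, a log2 difference of 0.66 (0.16 to 1.16) with no overlap. miR-3535, read from within Ncl, had 16.4, 17.0 and 32.0 in Control and 44.2, 44.3 and 33.7 in dmPGE2+APAP (log2 0.89, 0.23 to 1.54), again with no overlap. RefSeq gives its source as Gm24148 and its length as 26 bases, and whether its reads come from a miRNA hairpin was not tested. The epithelial miRNA miR-205-5p held 2.05, 0.136 and 2.12 CPM in Control against 3.82, 68.2 and 2.66 in dmPGE2+APAP, with library 2 far above the rest. Its log2 difference was 3.82, and 1.20 without that library. The same library was the highest for miR-378c (827, 2033 and 1322 CPM; log2 0.70, or 0.40 without it) and miR-126b-5p (44.1, 128 and 62.1 CPM; log2 0.81, or 0.36 without it). miR-126b-5p comes from the strand opposite miR-126a, and the strand setting of the counting is not given in the sources used here.

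Library 2 was the highest of the dmPGE2+APAP libraries in 11 of the 15 higher miRNAs and the lowest in 13 of the 15 lower ones. Without it, all 15 higher and all 15 lower values kept their direction. The median log2 difference went from 0.89 to 0.65 in the higher set and from -0.58 to -0.41 in the lower set, and 1 and 0 of them passed edgeR's threshold. These sets were chosen by their p in this same contrast, so their values are a description. The part that the depth of library 2 has in them was not tested. With each library thinned to its depth, edgeR called 0 miRNAs higher and 1 lower. On the thinned reads miR-6481 did not pass the count filter, so it was not tested there.

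**Figure D3:**
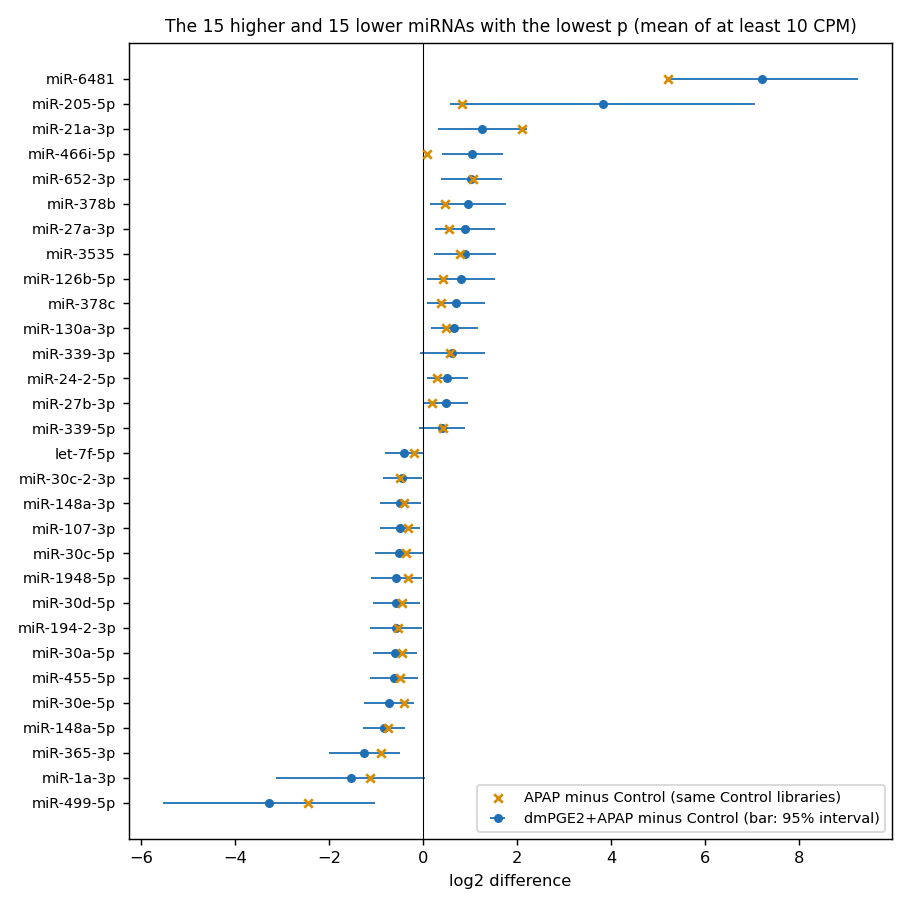
Log2 difference from Control (x axis) of the 15 higher and 15 lower miRNAs with the lowest p among those at a mean of at least 10 CPM over the 6 libraries (y axis); blue points are dmPGE2+APAP with the 95% interval as a bar, and orange crosses are APAP against the same Control libraries. The interval of 13 miRNAs in each set leaves out 0, and miR-6481 and miR-499-5p are the outermost points.

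Among lower miRNAs 0 passed, and the hairpin of miR-148a stood first by p-value. miR-148a is a hepatocyte miRNA, and its minor arm miR-148a-5p had 273, 192 and 255 CPM in Control, 145, 159 and 126 under APAP alone and 129, 121 and 155 in dmPGE2+APAP. Both treated groups lay below every Control library. Against Control the log2 difference was -0.83 (SE 0.21, 95% interval -1.27 to -0.38), with edgeR's Benjamini-Hochberg adjusted p at 0.141. The major arm miR-148a-3p had 159381, 107346 and 118901 CPM in Control against 94275, 75856 and 104798 in dmPGE2+APAP, again without overlap (log2 -0.49, -0.93 to -0.05). That value was -0.22 without Control library 1 and -0.31 without dmPGE2+APAP library 2.

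miR-365-3p, known from brown fat differentiation, had 32.7, 46.1 and 70.1 CPM in Control, 27.6, 37.1 and 14.6 under APAP alone and 26.3, 21.3 and 15.1 in dmPGE2+APAP. Every dmPGE2+APAP library lay below every Control library, and the log2 difference was -1.25 (95% interval -2.003 to -0.49), with edgeR's Benjamini-Hochberg adjusted p at 0.206. It was called in 1 of 23 alternatives, the fit with no filter on low counts (adjusted p 0.00434).

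The miR-30 family, which in liver restrains profibrotic and developmental targets, had mostly negative differences. Of 11 tested members 9 had values below 0, beside 185 of 347 over all miRNAs, with a median log2 difference of -0.44 beside -0.03. At an unadjusted p under 0.05 there were 4 lower members, beside 18 of 347 (5.19%), and 0 were called by edgeR. The median was -0.28 without Control library 3. miR-30e-5p, from a hairpin within Nfyc, had 4291, 4413 and 3431 CPM in Control against 2995, 2039.8 and 2329 in dmPGE2+APAP (log2 -0.72, -1.25 to -0.19). miR-30a-5p, the most abundant member, had 21919.7, 21357 and 25639 in Control and 18665, 12627 and 14313 in dmPGE2+APAP (log2 -0.60, -1.07 to -0.12). In neither did the groups overlap. miR-30d-5p (log2 -0.57) and miR-30c-5p (log2 -0.51) did overlap with Control. Of the 6 tested 3p arms, 4 had values below 0: miR-30c-1-3p (-0.45) and miR-30c-2-3p (-0.44), both without overlap, and miR-30e-3p (-0.27) and miR-30b-3p (-0.14). Both members above 0 were 3p arms: miR-30a-3p had 348 ± 33.0 CPM in Control against 351 ± 32.3 in dmPGE2+APAP, and miR-30d-3p 18.8 ± 3.29 and 25.1 ± 3.50. With library totals in place of TMM scaling, which moved the median of all miRNAs from -0.03 to 0.20, the family's median became -0.20.

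Other lower miRNAs included miR-107-3p, of a family that acts on insulin signalling, with 197, 201 and 203 CPM in Control against 167, 116 and 142 in dmPGE2+APAP. Its Control libraries lay within a few CPM of each other and above the other group, for a log2 difference of -0.49 (-0.92 to -0.06), or -0.31 without dmPGE2+APAP library 2. miR-455-5p had 504, 343 and 416 in Control and 326, 223 and 269 in dmPGE2+APAP (log2 -0.62, -1.13 to -0.11; -0.40 without Control library 1), while its partner miR-455-3p had 71.0 ± 9.94 and 69.4 ± 3.59. The liver and gut miRNA miR-194-2-3p (log2 -0.58), miR-1948-5p (log2 -0.57), miR-30c-2-3p (log2 -0.44) and let-7f-5p (log2 -0.41) completed the set apart from muscle miRNAs. Without dmPGE2+APAP library 2 the first of these was -0.38 and let-7f-5p was -0.24, and miR-30c-5p of the miR-30 family was -0.30 (-0.28 without Control library 3).

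Muscle miRNAs had some of the lowest differences and spread widely within Control. miR-499-5p, encoded within the myosin gene Myh7b, had 101, 42.3 and 12.7 CPM in Control, 3.89, 13.4 and 11.5 under APAP alone and 2.54, 1.70 and 10.2 in dmPGE2+APAP. The groups did not overlap, but Control library 1 was far above Control library 3, and dmPGE2+APAP library 2 rested on 2 reads. The log2 difference was -3.28 (SE 0.96, 95% interval -5.52 to -1.03), with edgeR's Benjamini-Hochberg adjusted p at 0.277; thinned to equal depth it passed (0.0230). miR-1a-3p had 2543, 1010.2 and 452 in Control and 321, 373 and 683 in dmPGE2+APAP, with overlap, and its log2 difference of -1.54 became -0.56 without Control library 1. The 3 muscle markers summed to 481 to 2699 CPM in Control, 313 to 902 in APAP and 340 to 720 in dmPGE2+APAP. Their part in other results was not tested. Of 10 muscle rows 4 were tested, 3 lay below 0 (beside 185 of 347 over all miRNAs), the median was -1.13 and 0 were called. Without Control library 1 that median was -0.34.

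The 10 most abundant rows held 88.1% ± 1.00 of reads in Control and 86.4% ± 1.12 in dmPGE2+APAP (SD, n = 3). miR-122-5p, the main hepatocyte miRNA, had 179837, 323896 and 176773 CPM in Control against 212152, 177987 and 183631 in dmPGE2+APAP. Control library 2 was high and the other libraries overlapped (95% interval of the log2 difference -0.74 to 0.25). miR-21a-5p had 234211, 231453 and 189200.0 in Control and 186276, 134792 and 177289 in dmPGE2+APAP, every one of the latter below every Control library (log2 -0.39, -0.84 to 0.05; edgeR's Benjamini-Hochberg adjusted p 0.489). For miR-192-5p the 95% interval was -0.47 to 0.39, for miR-143-3p, a miRNA of stellate cells and smooth muscle, -0.52 to 0.49, and for miR-22-3p -0.55 to 0.30. A change of 2-fold, a log2 value of 1, lay outside each of these intervals. With whole liver, fewer cells of a type and less RNA per cell cannot be told apart.

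Summed by seed, 239 families were tested, 52 of them with more than 1 member. Those of miR-6481 and miR-503-5p rose, 0.837% of families, and 0 (0.0%) fell. Before adjustment 15 (6.28%) lay higher and 12 (5.02%) lower at a p under 0.05, and the groups did not overlap in 19 higher (7.95%) and 20 lower (8.37%). Both rising families consist of 1 miRNA, so their values are those given above. With fewer families to adjust over, edgeR's Benjamini-Hochberg adjusted p for miR-503-5p was 0.0316. That call was lost without any 1 of the Control libraries (0.0906 to 0.127), without dmPGE2+APAP library 3 (0.243) and with the replicate number as a block (0.05002). Without Control library 3 the family of miR-3535 passed in its place (0.0401).

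Among families of several members, the 5p seed of miR-148a and miR-148b had the lowest p of those below Control. It summed to 293, 209.8 and 266 CPM in Control against 141, 133 and 168 in dmPGE2+APAP, a log2 difference of -0.79 (95% interval -1.24 to -0.35) with edgeR's Benjamini-Hochberg adjusted p at 0.131. The common seed of miR-30a-5p, miR-30e-5p and miR-30c-5p summed to 27733, 27188 and 31172 in Control and 23144, 15594 and 17771 in dmPGE2+APAP, a log2 difference of -0.61 (-1.07 to -0.15). Both sums stood below Control in every library. The miR-30 sum is incomplete: it leaves out miR-30d-5p, whose sequence was not matched, and miR-30b-5p. The 10 members of the let-7 seed summed to 38512 ± 3146 CPM in Control against 30279 ± 4184 in dmPGE2+APAP (SD, n = 3), also without overlap (log2 -0.35, -0.72 to 0.03). On the higher side, miR-27a-3p and miR-27b-3p summed to 9585 ± 1413 and 13763 ± 4112 with overlap (log2 0.52, 0.06 to 0.98). miR-130a-3p, miR-130b-3p and miR-301a-3p summed to 22.5 ± 1.94 and 36.1 ± 6.48 without overlap (log2 0.66, 0.15 to 1.18). None of these 5 families passed (0 of 5).

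The ratio of the 3p to the 5p arm of a hairpin does not depend on library scaling, since both arms come from 1 library. The 0.5 reads added to each arm do weigh more in a shallower library. In 98 hairpins with both arms tested, limma with Benjamini-Hochberg adjustment called 0 ratios higher (0.0%) and 0 lower (0.0%), while the unadjusted p was under 0.05 for 8 higher (8.16%) and 6 lower (6.12%). Groups did not overlap in 16 higher (16.3%) and 5 lower (5.1%). The lowest p belonged to miR-99a, whose log2 ratio was -11.20, -12.03 and -11.49 in Control and -13.26, -13.61 and -14.19 in dmPGE2+APAP. The difference was -2.11 (SE 0.43), at a limma adjusted p of 0.0764. Its 3p arm held 13, 9 and 19 reads in Control and 3, 0 and 1 in dmPGE2+APAP, and with 5 reads added to each arm in place of 0.5 the difference was -0.37. The abundant miR-99a-5p had 5079 ± 376 and 5309.6 ± 436 CPM.

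For miR-21a the log2 ratio of passenger to guide arm was -14.37, -14.78 and -16.61 in Control, -12.76, -13.29 and -11.95 under APAP alone and -13.35, -13.06 and -13.43 in dmPGE2+APAP. All treated libraries lay above all Control libraries, and the difference from Control was 1.97 (SE 0.57, limma adjusted p 0.135). The hairpin of miR-101a gives a miRNA that targets the chromatin regulator Ezh2. Its ratio was 12.43, 11.67 and 12.49 in Control and 11.03, 10.90 and 10.79 in dmPGE2+APAP. The difference was -1.29 (SE 0.33, limma adjusted p 0.135). Its 5p arm had 0.873 ± 0.448 CPM in Control against 1.74 ± 0.489 in dmPGE2+APAP, so the ratio rests on few 5p reads. An arm this low may pass the count filter only through libraries where it is higher. The part that the filter has in this ratio was not tested. miR-425 and miR-503 followed with differences of 1.14 (SE 0.32) and -1.61 (SE 0.45), where the arm with the larger difference in level was miR-425-3p (5.67 ± 0.938 CPM in Control against 10.8 ± 2.42 in dmPGE2+APAP) and miR-503-5p. With 5 reads added to each arm, the ratios of miR-21a, miR-101a and miR-700 passed at a limma adjusted p of 0.0488 each. Every dmPGE2+APAP library was shallower than every Control library, so added reads weigh more in dmPGE2+APAP. The part that depth has in these calls was not tested.

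**Figure D4:**
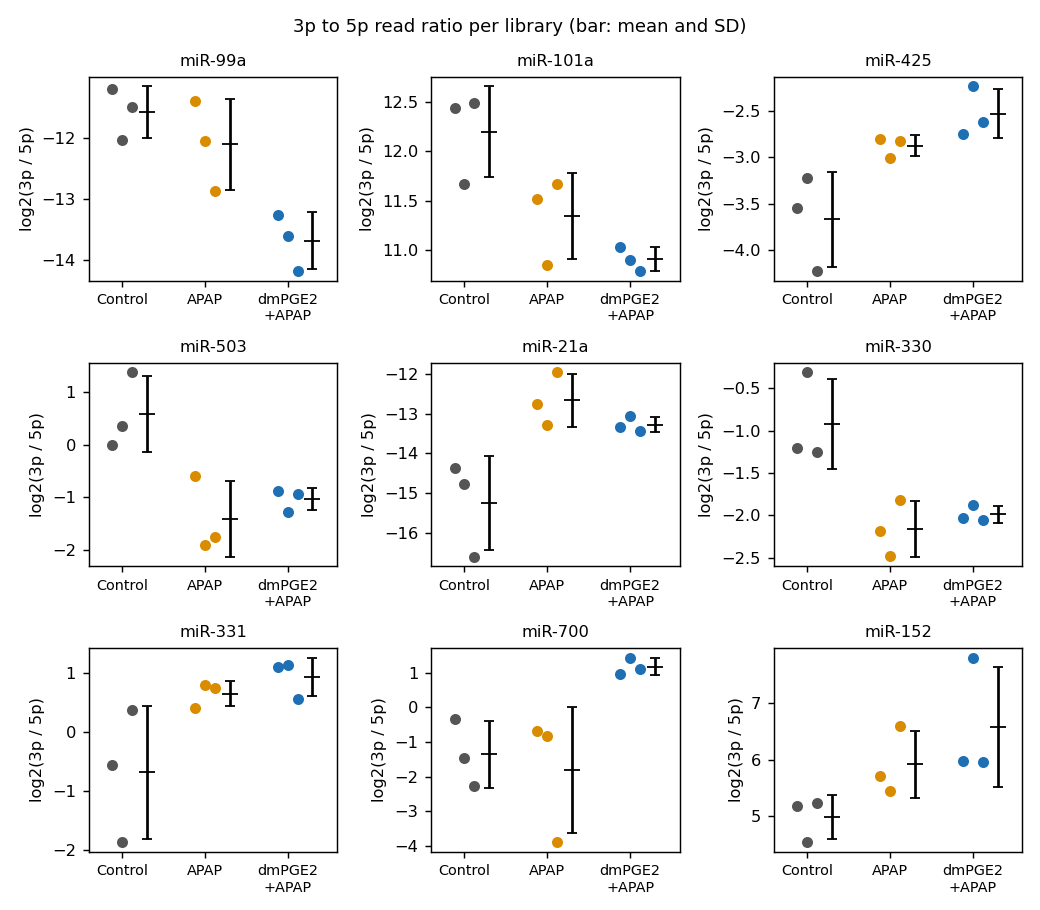
Log2 ratio of 3p to 5p reads (y axis) in each Control, APAP and dmPGE2+APAP library (x axis) for the 9 hairpins with the lowest p; points are replicates 1, 2 and 3 from the left, and the bar is the mean with its SD (n = 3). In all 9 panels the dmPGE2+APAP libraries lie wholly on 1 side of Control, from -13.26 to -14.19 against -11.20 to -12.03 in miR-99a.

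Marker miRNAs of blood and supporting cells gave the following. The red-cell miRNA miR-451a had 402, 446 and 379 CPM in Control, 1172, 639 and 590.2 under APAP alone and 291, 279 and 314 in dmPGE2+APAP. The last group lay below both others, and against Control the log2 difference was -0.47 (95% interval -0.99 to 0.04; edgeR's Benjamini-Hochberg adjusted p 0.481). miR-486a-5p, another red-cell miRNA, had 47.9 ± 11.9 CPM in Control against 48.1 ± 7.78 in dmPGE2+APAP, with an interval of -0.63 to 0.61. The 3 red-cell markers summed to 418 to 516 CPM in Control, 709 to 1350 in APAP and 338 to 366 in dmPGE2+APAP. The myeloid miRNA miR-223-3p had 13.9, 10.7 and 15.8 CPM in Control against 18.4, 7.67 and 15.1 in dmPGE2+APAP (-0.58 to 0.79), so a change of 2-fold either way lay outside its interval. The endothelial miR-126a-3p had 7277 ± 627 and 8672 ± 734, and the lymphoid miR-150-5p 15.2 ± 11.8 and 19.9 ± 4.24, with Control library 1 at 1.91.

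Lists of cell-type miRNAs held 0 members called by edgeR's adjusted threshold. At an unadjusted p under 0.05 there was 1 higher member each in the endothelial (of 3 tested), epithelial (of 12) and neuronal (of 6) lists. These were miR-126b-5p, miR-205-5p and miR-9-5p, and dmPGE2+APAP library 2 was the highest of its group for each. The 3 endothelial rows come from a single locus, where the hairpins of miR-126a and miR-126b overlap. The muscle list had 1 lower member (of 4). Over all miRNAs, 18 of 347 (5.19%) passed that p in each direction, and 162 lay above 0. Of 15 liver-enriched rows 12 lay below 0, beside 185 of 347 over all miRNAs, and 4 were lower at an unadjusted p under 0.05, beside 18 of 347 (5.19%). Their median log2 difference was -0.19, but -0.05 without dmPGE2+APAP library 2, -0.06 without dmPGE2+APAP library 1 or without Control library 1, and 0.08 with library totals. Medians were -0.01 for 5 erythroid rows, 0.10 for 4 myeloid rows, -0.01 for 2 lymphoid rows, 0.25 for 3 endothelial rows, 0.03 for 9 stellate and mesenchymal rows and 0.13 for 12 cholangiocyte and epithelial rows. Single libraries moved most of these. The erythroid median was -0.46 without Control library 3, -0.30 without dmPGE2+APAP library 2 and 0.26 without Control library 2, and 0.27 with library totals. Both arms of miR-486a are among the erythroid rows and held similar reads, with a log2 3p to 5p ratio of 0, 0.05 and 0.01 in Control. They were not merged, and the median is the value of miR-486a-5p (-0.01), beside 0.01 for miR-486a-3p. The other rows were miR-451a (-0.47), miR-144-5p (-0.48) and miR-144-3p (0.01). Leaving out 1 Control or dmPGE2+APAP library gave -0.15 to 0.23 for the lymphoid median, -0.08 to 0.20 for the myeloid, 0.23 to 0.46 for the endothelial, -0.12 to 0.31 for the stellate and -0.05 to 0.35 for the epithelial. The 6 tested neuronal rows had 5 values above 0 and a median of 0.52 (0.28 without dmPGE2+APAP library 2), with miR-9-5p at 6.50, 29.0 and 7.15 CPM in dmPGE2+APAP, where library 2 was again the highest. The filter passed 6 of 15 neuronal rows, against 15 of 17 liver-enriched rows.

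Pathway and family lists were likewise without a call by edgeR (0 in each), with at most 4 members of a list at an unadjusted p under 0.05. Over all miRNAs, 18 of 347 (5.19%) passed that p in each direction, 162 lay above 0 and 185 below. miRNAs induced through cAMP and CREB, a route that EP receptors use, came to 3 tested rows, all above 0, with a median of 0.56 (0.23 to 0.80 over the alternatives). Of these miR-132-3p had 4.55, 5.84 and 5.16 CPM in Control against 8.62, 3.41 and 8.99 in dmPGE2+APAP, with overlap, and miR-132-5p 8.07, 5.84 and 9.03 in Control and 9.19, 19.6 and 8.38 in dmPGE2+APAP. Library 2 of dmPGE2+APAP was the lowest of its group for miR-132-3p and the highest for miR-132-5p. The remaining row, miR-212-5p, averaged 1.51 CPM over all libraries. NF-kB-linked miRNAs had a median of -0.01 over 6 rows (0.32 without Control library 3), 3 above and 3 below 0, with miR-146a-5p at 316 ± 107 and 293 ± 99.2 CPM; the list holds miR-21a-3p. The liver regeneration list had 12 of 14 values below 0 and a median of -0.29 (-0.10 without Control library 3, -0.14 without dmPGE2+APAP library 3 and -0.07 with library totals), with miR-26a-5p at 24069 ± 3887 and 19681 ± 2261. The proliferation-linked miR-17-92 and paralog clusters had 8 of 11 below 0 and a median of -0.25 (-0.45 to -0.13 when 1 Control or dmPGE2+APAP library was left out, and -0.02 with library totals). Their lowest member, miR-19a-3p, was chosen after its values were seen, with 5, 21 and 12 reads in Control and 1, 0 and 1 in dmPGE2+APAP, or 0.1003 times the Control level after scaling for depth (exact 95% interval 0.0117 to 0.388, for counting error only).

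Of the other families, medians were -0.08 for miR-15 and miR-16 (12 rows), 0.09 over the 6 miR-29 rows, -0.01 over the 16 let-7 rows, -0.02 over the 7 miR-181 rows and 0.06 for miR-10, miR-99, miR-100 and miR-125 (13). They were -0.04 for metabolic regulators (11 rows), 0.07 for p53 and hypoxia (3), 0.00 for the Dlk1-Dio3 cluster (19 of 69 rows tested) and -0.27 for the rodent repeat cluster (5 of 40). With library totals the medians of miR-15 and miR-16, let-7, miR-181 and the metabolic list became 0.13, 0.23, 0.21 and 0.14. Across all 24 lists, the median turned sign in 13 when 1 Control or dmPGE2+APAP library was left out. Among those of the present paragraph, the sign was kept by the rodent repeat cluster (-0.65 to -0.09) and by miR-10, miR-99, miR-100 and miR-125 (0.04 to 0.14). The let-7 rows ran from -0.41 (let-7f-5p, an abundant guide arm) to 0.77 (let-7f-1-3p, a passenger arm at 1.57 to 2.72 CPM in Control and 2.66 to 5.96 in dmPGE2+APAP, with overlap).

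**Figure D5:**
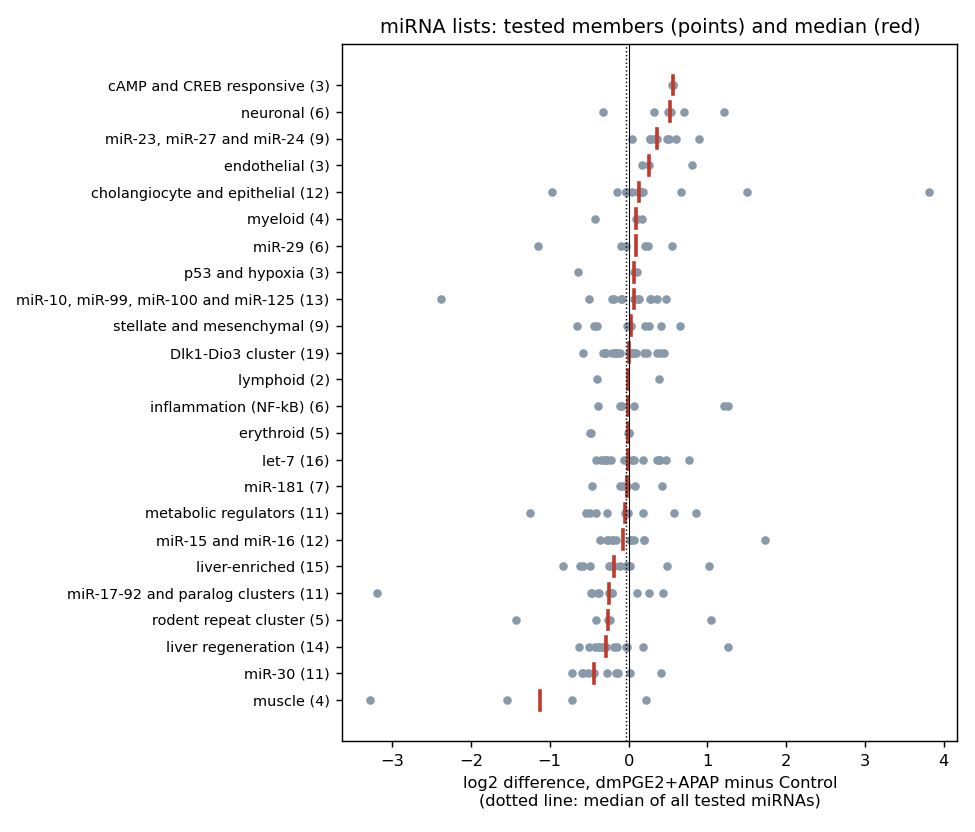
Log2 difference between dmPGE2+APAP and Control (x axis) of each tested member (grey points) of 24 lists of miRNAs (y axis, number tested in brackets), with the list's median as a red bar and the median of all tested miRNAs, -0.03, as a dotted line. Medians run from -1.13 (muscle; -0.34 without Control library 1) to 0.56 (cAMP and CREB responsive), and single members such as miR-205-5p at 3.82 and miR-499-5p at -3.28 lie far from the rest of their lists.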

How the data were processed

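Small RNA of mouse liver was sequenced in 9 libraries, 3 in each of 3 groups. The authors deposited 1 table with read counts and TPM values per mature miRNA and library, per the file headers. Alignment with Bowtie to mm10 is named in the submitters' processing notes; the sources used here do not give the counting tool, its strand setting or how reads matching several miRNAs were assigned. The columns of the saline libraries carry a prefix, BC, that no label uses, and were assigned to Control as the group left over. No value column of the table was left unused (0).

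The counts were tested with edgeR 4.0.16 in R 4.3.3 (filterByExpr with a minimum count of 10 and total of 15, TMM scaling, robust quasi-likelihood fit of 3 group means to all 9 libraries) with Benjamini-Hochberg adjustment over all tested rows at 0.05. Intervals are at 95%. Rows of at least 100 reads were counted once where, library by library, they differed by no more than 5% or 2 reads and their log2 values correlated above 0.99. Levels are TMM-scaled CPM. Counts of miRNAs with the same bases 2 to 8 were summed into seed families over all rows with a RefSeq sequence (795 of 946), tested or not. Near-identical rows entered once, and the count filter was then applied to the sums. Of the 360 tested rows 303 had a sequence, and rows without one entered no family. Arm ratios, with 0.5 reads added to each arm, were tested with limma 3.58.1. DESeq2 1.42.0, limma-voom, other scalings and filters, thinned counts and the deposited TPM values were alternatives.

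The miRNAs named are those past the threshold, the 15 higher and 15 lower with the lowest p at a mean of at least 10 CPM over the 6 libraries compared, the 10 most abundant, the 2 most abundant tested members of each list, the leading seed families and hairpin ratios, and partner arms. Members and lists were chosen with earlier results of these data known. The scripts were tested on simulated data.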

Additional observations from a re-analysis of the deposited data

How the results depend on the processing

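The count of 1 higher miRNA became 2 with DESeq2, with library totals, with RLE scaling and with TPM at a pseudocount of 1, and 0 when only rows averaging 10 CPM over all 9 libraries were kept, with thinning to equal depth, with TPM at a pseudocount of 10 and with limma-voom with robust variances, which was chosen after seeing the data. The count of 0 lower miRNAs became 1 with no filter and 1 with thinning. Leaving out 1 library gave 1 to 2 higher (2 without APAP library 3 or dmPGE2+APAP library 1) and 0 lower. For seed families it gave 1 to 2 higher (1 without Control library 1 or 2 or dmPGE2+APAP library 3, and 2 without Control library 3, where miR-3535 passed and miR-503-5p did not) and 0 to 1 lower (miR-499-5p, without Control library 3), and the latter was also 1 with no filter. For arm ratios it gave 0 to 1 in each direction (1 without APAP library 3), and 5 reads added to each arm gave 2 higher and 1 lower. Added reads weigh more in the shallower dmPGE2+APAP libraries, and the part of depth was not tested. The log2 difference of miR-339-3p turned to -0.15 when thinned; the cause was not tested. miR-6481, above 10 CPM on average over the 6 libraries compared but not over all 9, has no value when thinned or with that filter over all 9.

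Same-numbered Control and dmPGE2+APAP libraries had correlations of -0.25, -0.16 and -0.18 between their deviations from the group means. Libraries of different numbers were not correlated in this way, so these values cannot decide whether the numbers pair the libraries. With the replicate block there were 1 higher and 0 lower miRNAs, 1 higher seed family and 1 lower arm ratio. Of 116 named miRNAs tested, 46 changed sign under some alternative, all 46 with an interval that covers 0. Intervals were widest for miRNAs under 10 CPM, of which 120 of 145 held fewer than 10 reads in the shallowest library.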
